A study of Mus musculus with 6 samples.

Results

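The 32 genes described here encode laminin chains, matrix proteoglycans and non-collagen matrix glycoproteins, and they were chosen by name, with no threshold on their values but with earlier results of these data known, from the 32285 genes of the count table. The sum of counts over the 6 libraries reached 10 for all 32, which were tested among 20021 genes. Retinal RNA was sequenced at PN18 (postnatal day 18) from 3 OIR-CIH and 3 OIR-Norm eyes of C57BL/6J mice. Pups of both groups had oxygen-induced retinopathy (OIR), a model of ischemic retinopathy in which 75% O2 for 5 days from PN8 removes the central capillaries and the return to room air at PN13 is followed by abnormal vessel growth. OIR-CIH pups were then exposed to chronic intermittent hypoxia (CIH), which models sleep apnea, with 266 cycles over 10 h of each day, each cycle of 135 s taking the cage from 20.95% to 5% O2 and back. OIR-Norm pups were given the same flow of gas at an unchanged O2 level. Neither group is a healthy retina, since both passed through hyperoxia, and the comparison asks what CIH adds to OIR. The libraries are called replicates, and Xist and Y-linked RNA were both counted in each of the 6. Xist ran from 9197 counts in OIR-Norm replicate 1 to 47119 in OIR-Norm replicate 2. The sum of 4 Y-linked genes ran from 1460 counts in OIR-CIH replicate 1 to 5852 in OIR-Norm replicate 3. So a library may hold more than 1 animal, although 3 eyes per group are stated, and the mix of sexes was uneven. The p-values measure the spread between these libraries.

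Basement membranes are thin sheets of matrix beneath vessels and on the vitreous side of the retina. Laminins, trimers of an alpha, a beta and a gamma chain, form one network in them, which nidogens and the heparan sulfate proteoglycans perlecan and agrin tie to a second network of collagen IV. New retinal vessels follow a fibronectin-rich matrix laid down by astrocytes and deposit basement membrane of their own, while the lecticans, tenascins and thrombospondins fill the space between neurons and glia and influence adhesion and synapses.

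Total counts were between 26289905 and 38010151 per library. Levels are given as CPM, counts brought to one library total after scaling by the trimmed mean of M-values, and the log2 fold change is OIR-CIH over OIR-Norm, so that a negative value is a lower level in OIR-CIH. The libraries carried retinal RNA, with Crx, a photoreceptor transcription factor, at 1642 to 1911 CPM in OIR-CIH and 1353 to 1597 CPM in OIR-Norm, and Glul (Mueller glia) and Pecam1 (endothelium) were counted in every library. OIR-Norm replicate 2 stood apart, with 484 CPM summed over 7 lens genes against 15.6 to 81.8 CPM in the other 5 libraries, and OIR-CIH replicate 3 had 12.2 CPM summed over 6 genes of the cornea and conjunctiva against 0.283 to 1.46 CPM. The members' values and group medians that OIR-Norm replicate 2 moved most are therefore given with and without it.

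No member passed the test, which required an adjusted p under 0.05 in edgeR's quasi-likelihood test and an absolute log2 fold change of more than 0.5. The counts were 0 of 32 lower, where 0.21% of all genes tested were called lower in OIR-CIH, and 0 of 32 higher, where 0.105% were called higher. At an unadjusted p under 0.05, 9 members were lower (Vcan, Fbln1, Fbln2, Lama5, Fn1, Lamb2, Agrn, Hspg2 and Lama2) beside 7.1% of all genes, and 1 member, Thbs4, was higher beside 6.3% of all genes. DESeq2 called 3 members lower, Vcan, Lama5 and Fbln2, beside 0.642% of the genes to which it gave an adjusted p, and 0 members higher beside 0.216%. DESeq2 called none of these 3 when OIR-CIH replicate 1 or OIR-Norm replicate 2 was left out. Vcan and Lama5 were called with each other library left out, but Fbln2 only without OIR-Norm replicate 3.

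By sign alone, 25 of the 32 log2 fold changes were negative and 7 were positive, and 50.9% of all genes tested had a negative value. Their median log2 fold change was -0.23, beside -0.0050 over all genes tested. A value under -0.5 was measured for 8 members and for 9.56% of all genes, and a value over 0.5 for 1 member and for 5.22% of all genes. The median depended on OIR-Norm replicate 2, without which it was -0.019, with 21 negative values of 32 beside 49.1% of all genes and 2 members under -0.5 beside 8.11% of all genes. In that reduced comparison 6 members were lower at an unadjusted p under 0.05, beside 4.97% of all genes.

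**Figure D1:**
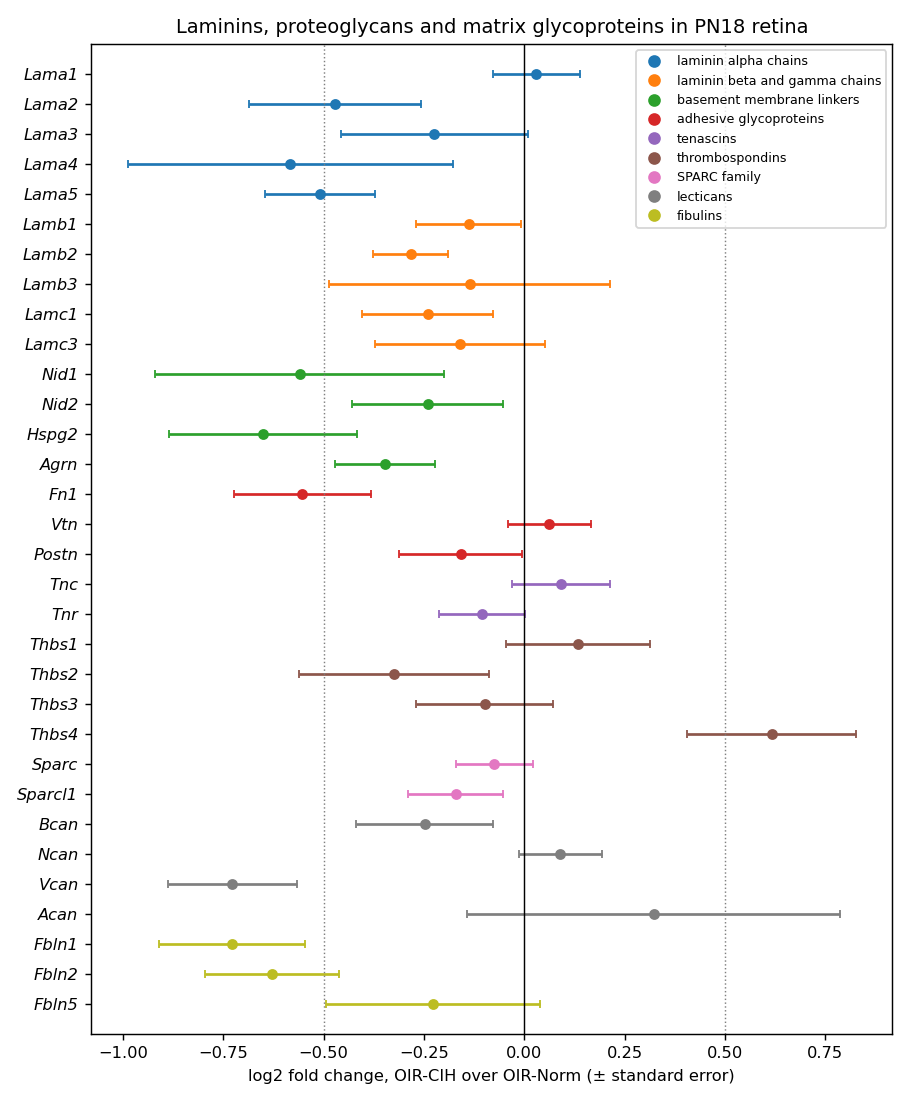
Log2 fold change of each of the 32 members (horizontal axis, OIR-CIH over OIR-Norm) with its standard error, coloured by role; dotted lines mark the minimum size for a call. Vcan and Fbln1 had the lowest values, both -0.73, and Thbs4 the highest, 0.62, and no member passed the test.

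In 4 members the 3 OIR-CIH libraries were all below the 3 OIR-Norm libraries (Vcan, Fbln2, Lama5 and Lamb2), and 9.26% of all genes tested were apart in that direction. No member was apart in the other direction, beside 9.12% of all genes. The exact two-sided permutation test on one gene's CPM gave 0.1 for each of these 4 members, the smallest value that 3 libraries against 3 allow.

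Promoter sequence is shown for the 4 members with the lowest p-values and for Thbs4, the member with the highest fold change, so that both directions are represented. Each window runs from 250 bases before to 50 bases after a transcription start of RefSeq on GRCm38.p6, 5′ to 3′ on the gene's own strand. Capitals mark the core of the hypoxia response element, ACGTG, which hypoxia-inducible factors bind, and the GC box, GGGCGG, which SP-family factors bind, each on either strand.
Vcan (chr13:89742463-89742762, minus strand): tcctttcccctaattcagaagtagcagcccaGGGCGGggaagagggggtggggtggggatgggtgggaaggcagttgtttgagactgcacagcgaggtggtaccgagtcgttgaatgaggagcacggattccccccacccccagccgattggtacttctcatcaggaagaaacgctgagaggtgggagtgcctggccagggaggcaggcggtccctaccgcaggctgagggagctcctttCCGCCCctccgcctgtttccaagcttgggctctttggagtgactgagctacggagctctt
Fbln1 (chr15:85205699-85205998, plus strand): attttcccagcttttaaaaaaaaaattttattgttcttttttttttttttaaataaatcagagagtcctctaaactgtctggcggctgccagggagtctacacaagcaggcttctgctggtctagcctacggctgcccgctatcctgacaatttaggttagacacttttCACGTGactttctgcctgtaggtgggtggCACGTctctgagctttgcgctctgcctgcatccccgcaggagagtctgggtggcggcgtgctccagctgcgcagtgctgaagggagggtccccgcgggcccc
Fbln2 (chr6:91212514-91212813, plus strand): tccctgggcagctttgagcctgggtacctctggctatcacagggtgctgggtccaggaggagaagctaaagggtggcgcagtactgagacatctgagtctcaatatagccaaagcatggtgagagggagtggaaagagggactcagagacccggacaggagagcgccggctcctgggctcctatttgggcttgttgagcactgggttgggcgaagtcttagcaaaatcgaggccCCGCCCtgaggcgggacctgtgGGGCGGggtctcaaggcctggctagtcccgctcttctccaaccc
Lama5 (chr2:180225810-180226109, minus strand): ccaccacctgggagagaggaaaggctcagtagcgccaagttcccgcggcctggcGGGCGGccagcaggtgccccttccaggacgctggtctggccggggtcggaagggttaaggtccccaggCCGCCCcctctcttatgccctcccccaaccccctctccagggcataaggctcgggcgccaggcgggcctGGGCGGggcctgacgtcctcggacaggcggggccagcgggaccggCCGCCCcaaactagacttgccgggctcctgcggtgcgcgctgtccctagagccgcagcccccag
Thbs4 (chr13:92794769-92795068, minus strand): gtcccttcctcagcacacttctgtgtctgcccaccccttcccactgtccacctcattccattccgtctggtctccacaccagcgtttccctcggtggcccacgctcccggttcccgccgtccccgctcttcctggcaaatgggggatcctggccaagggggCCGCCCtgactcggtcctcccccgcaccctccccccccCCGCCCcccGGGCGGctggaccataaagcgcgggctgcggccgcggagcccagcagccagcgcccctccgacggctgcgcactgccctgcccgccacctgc
Of these 5 windows only that of Fbln1 held ACGTG. It has 3 matches, of which 2 lie on opposite strands of a single palindrome, CACGTG, the E-box. The windows of Vcan, Fbln2, Lama5 and Thbs4 held 2, 2, 4 and 3 GC boxes. The Fbln1 window shown held none, but a second, overlapping window of Fbln1 (chr15:85205758-85206057), not shown, held 2.

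The table of promoters covered 23 of the 32 members with 29 windows. ACGTG stood in 3 of these 29 windows, those of Fbln1 and Ncan, or 10.3%, and in 19.6% of all 32851 windows of the same length. The GC box stood in 18 of 29 windows, 62.1%, and in 35.7% of all windows, and the median G and C content was 59.3% in the members' windows and 52.7% in all. CACGTG was found in 2 windows, both of Fbln1, and in 7.15% of all. These windows overlap and hold the same single site. The STAT letters TTCNNNGAA were found in 2 windows, of Lamb2 and Vtn, and in 8.3% of all, and the AP-1 letters TGANTCA in 0 windows and in 7.81% of all. The TATA box, TATAAA, was found in 6 windows, of Ncan, Postn, Thbs2, Tnc and Vtn, and in 13.6% of all. These are matches of letters only, and Vcan, Fbln2 and Lama5 shared no match of these 6 motifs other than the GC box.

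Among the laminin alpha chains, which carry the sites for integrins and dystroglycan on cells, 4 of 5 had a negative fold change and their median was -0.47. Without OIR-Norm replicate 2, 3 of 5 were negative and the median was -0.27. Lama5 (chr2:180176373-180225859), the alpha chain of mature vascular and other basement membranes, was at 27.9, 37.0 and 36.8 CPM in OIR-CIH replicates 1 to 3 and at 46.3, 58.4 and 40.7 CPM in OIR-Norm replicates 1 to 3. Its groups did not overlap, but the gap between OIR-CIH replicate 2 and OIR-Norm replicate 3 was small beside the spread within either group. The mean was 33.9 ± 5.19 CPM (SD, n = 3) in OIR-CIH and 48.5 ± 9.06 CPM in OIR-Norm, a log2 fold change of -0.51 ± 0.14 (standard error) with an adjusted p of 0.186 (edgeR), 0.0192 by DESeq2. Without OIR-Norm replicate 2 the log2 fold change was -0.36, with an adjusted p of 0.440 in edgeR and 0.419 in DESeq2.

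Lama2 (chr10:26980036-27619758), the alpha chain of muscle and of the membranes around brain vessels, was a lowly expressed member. It was at 2.16, 3.33 and 3.12 CPM in OIR-CIH and at 3.93, 5.02 and 3.20 CPM in OIR-Norm, and OIR-CIH replicate 2 exceeded OIR-Norm replicate 3. Its log2 fold change was -0.47 ± 0.21 with an adjusted p of 0.370, and -0.30 without OIR-Norm replicate 2. Lama4, the alpha chain typical of endothelial basement membrane, had a mean of 7.42 CPM in OIR-CIH and 11.3 CPM in OIR-Norm, a log2 fold change of -0.58 (adjusted p = 0.566), and this difference rested on a single library. OIR-Norm replicate 2 had 21.4 CPM of Lama4, while OIR-Norm replicates 1 and 3, at 7.82 and 4.74 CPM, lay around the OIR-CIH range of 5.65 to 8.53 CPM, and without replicate 2 the value was 0.25. Lama1, which the retina's inner limiting membrane needs, had close means of 11.5 and 11.3 CPM, a log2 fold change of 0.030 ± 0.11 and an adjusted p of 0.931. Lama3, an alpha chain of epithelial laminin, was at 2.63 and 3.05 CPM (log2 fold change -0.22, adjusted p = 0.716).

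All 5 beta and gamma chains had a negative fold change, with a median of -0.16, and all 5 were highest in OIR-Norm replicate 2. Without that library 3 of 5 were negative and the median was -0.013. Lamb2 (chr9:108479736-108490530), the beta chain of synapses and of the inner limiting membrane, was at 24.1, 25.1 and 27.4 CPM in OIR-CIH and at 32.7, 32.9 and 27.9 CPM in OIR-Norm. The groups did not overlap, although OIR-CIH replicate 3 and OIR-Norm replicate 3 were nearly level. The difference was small with a small error, a log2 fold change of -0.28 ± 0.09 with an adjusted p of 0.271, and it was -0.24 without OIR-Norm replicate 2.

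Lamc1 (chr1:153218922-153332786), the gamma chain of most laminin trimers, had the highest level per kb of exon among the laminin chains. It was at 45.0, 43.8 and 52.8 CPM in OIR-CIH and at 55.3, 72.3 and 40.2 CPM in OIR-Norm. OIR-Norm replicates 2 and 3 were the highest and the lowest of all 6 libraries, so the groups overlapped fully, and the log2 fold change was -0.24 ± 0.16 (adjusted p = 0.554) and -0.014 without OIR-Norm replicate 2. Lamb1, the widely used beta chain, was at a mean of 38.6 CPM in OIR-CIH and 42.6 CPM in OIR-Norm (log2 fold change -0.14, adjusted p = 0.686). Lamc3, a gamma chain with a described role in retina, was at 2.7 and 3.05 CPM (-0.16, adjusted p = 0.781), and Lamb3, the beta chain of epithelial laminin, was near the lower end at 0.625 and 0.716 CPM (-0.14, adjusted p = 0.896).

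The basement membrane linkers all had a negative fold change, with a median of -0.45, and all 4 were highest in OIR-Norm replicate 2. Without that library 3 of 4 were negative and the median was -0.12. Agrn (chr4:156165290-156197488) encodes agrin, which binds laminin and dystroglycan, and had the highest level per kb of the linkers. It was at 146, 191 and 191 CPM in OIR-CIH and at 189, 258 and 225 CPM in OIR-Norm. OIR-CIH replicates 2 and 3 were just above OIR-Norm replicate 1, so the groups overlapped, and the log2 fold change was -0.35 ± 0.12 (adjusted p = 0.289).

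Hspg2 (chr4:137468769-137570630) encodes perlecan, a heparan sulfate proteoglycan that holds growth factors in vessel walls. It was at 14.2, 21.2 and 19.3 CPM in OIR-CIH and at 25.4, 42.1 and 18.9 CPM in OIR-Norm. OIR-Norm replicate 3 lay inside the OIR-CIH range. The log2 fold change was -0.65 ± 0.23 (adjusted p = 0.295) and -0.28 without OIR-Norm replicate 2.

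The nidogens, which bridge laminin to collagen IV, overlapped between the groups. Nid1 had a mean of 13.8 CPM in OIR-CIH and 20.7 CPM in OIR-Norm (log2 fold change -0.56, adjusted p = 0.528) and spanned from 9.30 to 35.4 CPM among the OIR-Norm libraries, a 3.81-fold range. Nid2 had means of 22.1 and 26.2 CPM (-0.24, adjusted p = 0.614). Without OIR-Norm replicate 2 the values of Nid1 and Nid2 were 0.063 and -0.0089.

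**Figure D2:**
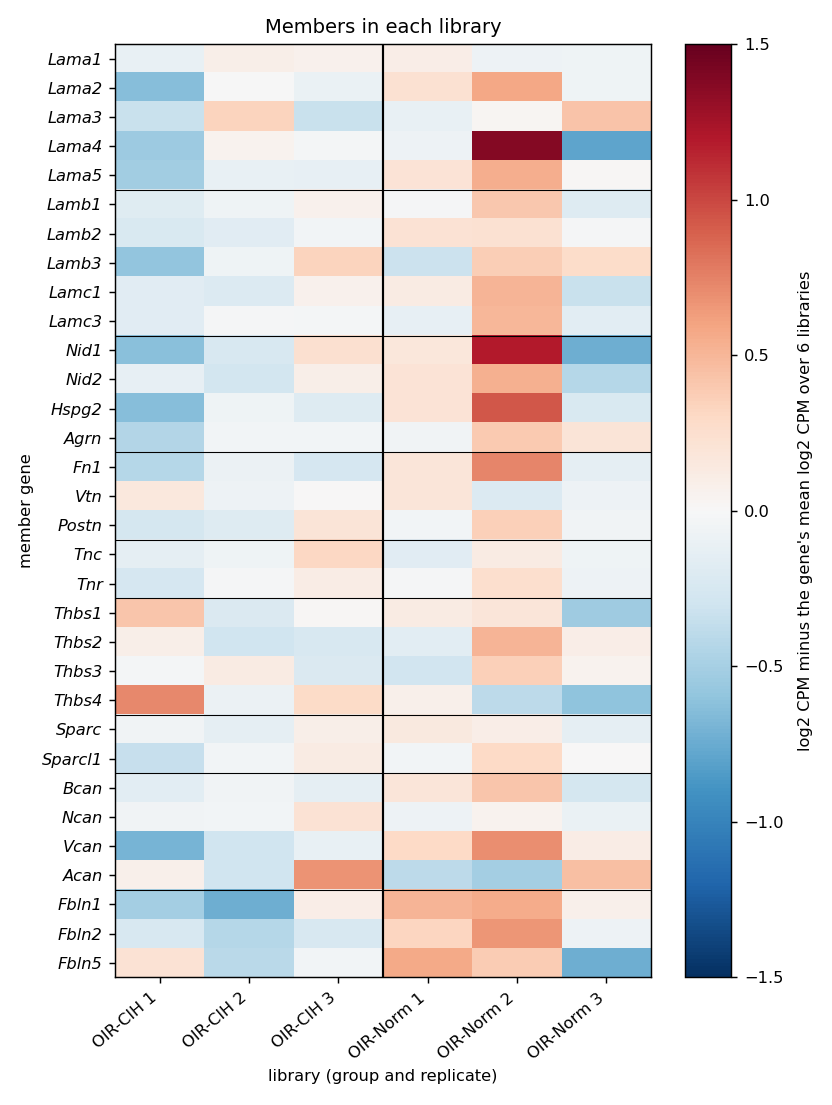
Log2 CPM of each member in each library, as the difference from that gene's mean over the 6 libraries; rows are members in the order of their roles and columns are libraries. OIR-Norm replicate 2 holds the highest value of 22 members, and Lama4, Nid1 and Hspg2 are its most raised members.

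OIR-Norm replicate 2 was the highest of the 6 libraries for 22 of 32 members and for 21% of all genes tested, and OIR-CIH replicate 1 was the lowest for 13 members and for 19.8% of all genes. OIR-Norm replicate 3 was the lowest for 10 members and for 14% of all genes. Without OIR-Norm replicate 2 the log2 fold changes were 0.047 for Lamb1, 0.075 for Lamc3, -0.013 for Lamb3, -0.018 for Postn, -0.13 for Thbs2, 0.070 for Thbs3, 0.26 for Thbs1, -0.058 for Sparcl1, -0.089 for Bcan and -0.11 for Fbln5. Marker lists moved with these libraries. The summed level of 11 genes of pericytes and smooth muscle was 90.8 to 139 CPM in OIR-CIH and 98.8 to 240 CPM in OIR-Norm, with 240 CPM in replicate 2 and 98.8 CPM in replicate 3, and 10 of the 11 genes were highest in OIR-Norm replicate 2. Of 12 endothelial genes, 9 were highest there, with a sum of 296 to 336 CPM in OIR-CIH and 295 to 384 CPM in OIR-Norm. The largest part of that sum was Kdr, at 165 to 179 CPM in OIR-CIH and 170 to 175 CPM in OIR-Norm. Pecam1 varied more, at 9.38 to 12.5 CPM in OIR-CIH and 8.32 to 24.4 CPM in OIR-Norm. By fold change, 9 of the 12 were negative and 3 positive. The lens sum of OIR-Norm replicate 2 is given above. In 10 fibroblast genes the sum was 25.0 to 37.3 CPM in OIR-CIH and 33.7 to 57.8 CPM in OIR-Norm, and in 6 blood genes it was 56.3 to 75.3 CPM and 52.1 to 115 CPM. No gene of these lists was at 0 in all libraries, and edgeR called none of them. DESeq2 called Myh11 of the pericyte and smooth muscle list and Col1a2 and Mfap4 of the fibroblast list lower. Over the genes to which it gave an adjusted p, 0.642% were called lower. Each of these genes had overlapping groups. All 11 pericyte and smooth muscle genes had a negative fold change, with a median of -0.49. Of 9 fibroblast genes tested, 6 were negative and 3 positive, with a median of -0.10. The part of vascular, connective tissue or lens RNA in the members' values was not tested, and in bulk tissue fewer cells of a type and less RNA per cell cannot be told apart.

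The summed levels of the astrocyte and microglial lists did not overlap between the groups. Retinal astrocytes lay down the matrix that guides vessels. The sum of 6 astrocyte genes was 134 to 142 CPM in OIR-CIH and 196 to 244 CPM in OIR-Norm, and 1 of the 6, Gfap, the intermediate filament protein of astrocytes and reactive Mueller glia, fell by 1.15 on the log2 scale (standard error 0.10, adjusted p = 0.000188, edgeR). Gfap made up most of that gap, and the sum of the other 5 genes was 71.6 to 74.7 CPM in OIR-CIH and 76.3 to 96.3 CPM in OIR-Norm. These 5 had no common direction. Pdgfra, at means of 30.5 and 42.0 CPM (-0.46), and Pax2 (-0.52) were lower in every OIR-CIH library. Igsf1 was higher in every OIR-CIH library (0.62), and S100b (-0.11) and Aldh1l1 (0.027) overlapped. The sum of 11 microglial genes was 102 to 114 CPM in OIR-CIH and 120 to 139 CPM in OIR-Norm, and 1 of the 11, Fcrls, a microglial receptor-like protein, fell by 0.69 (adjusted p = 0.0293, edgeR), while DESeq2 called 2 of the 11, Fcrls and Cx3cr1. In edgeR the call of Gfap held with each library left out and that of Fcrls only without OIR-Norm replicate 2, and in DESeq2 both held with each library left out. The sum of 9 Mueller glia genes overlapped, at 4163 to 5060 CPM in OIR-CIH and 4108 to 4599 CPM in OIR-Norm. Of the 9, 6 had a positive and 3 a negative fold change, and neither tool called any. Rlbp1 (0.34) and Car14 (0.40) were higher in every OIR-CIH library. Their adjusted p were 0.140 and 0.127 in edgeR and 0.00484 and 0.00757 in DESeq2, with fold changes under the minimum for a call. The part of these glia in the members' values was not tested.

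**Figure D3:**
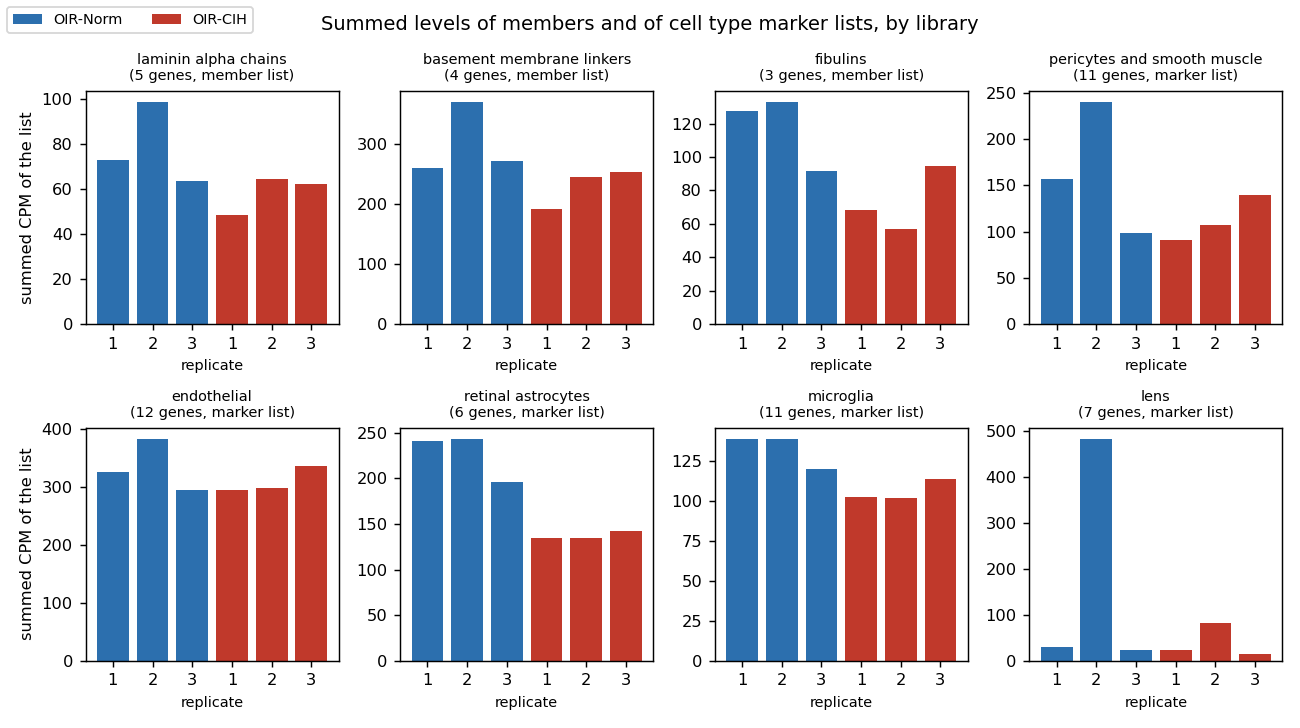
Summed CPM (vertical axes, each from 0) of 3 member groups and 5 marker lists in each library, with OIR-Norm in blue and OIR-CIH in red. Every list shown is highest in OIR-Norm replicate 2, with the lens genes at 484 CPM. The astrocyte and microglial sums there are close to those of OIR-Norm replicate 1. Both of these sums, and that of the linkers, separate the groups.

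Among adhesive glycoproteins, Fn1 (chr1:71585520-71653200) encodes fibronectin, the provisional matrix on which vessels grow. Its level was 103, 130 and 116 CPM in OIR-CIH and 158, 229 and 126 CPM in OIR-Norm. OIR-CIH replicate 2 was above OIR-Norm replicate 3, so the groups overlapped by these 2 libraries. The means were 116 ± 13.7 and 171 ± 53.1 CPM, and the log2 fold change was -0.55 ± 0.17 with an adjusted p of 0.243. Leaving out OIR-Norm replicate 2 gave -0.28.

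Vtn (chr11:78499091-78502324) encodes vitronectin, an integrin ligand, and had the highest level per kb of exon of all members, 274 CPM per kb. It was at 620, 528 and 559 CPM in OIR-CIH and at 626, 482 and 526 CPM in OIR-Norm. Both groups covered nearly the same range, with a log2 fold change of 0.063 ± 0.10 (adjusted p = 0.832). Postn, encoding periostin of connective tissue, was at 9.31 and 10.5 CPM (-0.16, adjusted p = 0.690).

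The tenascins are large glycoproteins that modulate adhesion. Tnr (chr1:159523769-159931729), a tenascin restricted to nervous tissue and part of perineuronal nets, was at 116, 137 and 150 CPM in OIR-CIH and at 137, 165 and 132 CPM in OIR-Norm. The libraries were interleaved and the log2 fold change was -0.11 ± 0.11 (adjusted p = 0.706) and -0.0010 without OIR-Norm replicate 2. Tnc was at means of 30.4 and 28.7 CPM (0.091, adjusted p = 0.783).

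The thrombospondins, of which Thbs1 and Thbs2 inhibit angiogenesis, had no common direction. Thbs4 (chr13:92751590-92794818), a pentameric thrombospondin of connective tissue and glia, was at 12.1, 6.87 and 8.97 CPM in OIR-CIH and at 7.69, 5.58 and 4.84 CPM in OIR-Norm. Only OIR-CIH replicate 2 lay below an OIR-Norm library. The means were 9.31 ± 2.63 and 6.04 ± 1.48 CPM, and the log2 fold change was 0.62 ± 0.21 with an adjusted p of 0.275. It was between 0.40 and 0.83 with single libraries left out, lowest without OIR-CIH replicate 1. That library was also the highest for the summed level of 11 genes of pigment epithelium and choroid, 1217 CPM, in a range of 939 to 1217 CPM in OIR-CIH and 694 to 1083 CPM in OIR-Norm. Of those 1217 CPM, 556 CPM came from Rlbp1, which is also on the Mueller glia list. Of the 11 genes, 6 had a negative and 5 a positive fold change. The 5 positive ones were Rpe65 (0.65), Rgr (0.59), Rlbp1 (0.34), Ttr (0.75) and Slc16a8 (0.62). All 5 had an unadjusted p under 0.05 in edgeR, beside 6.3% of all genes, and 0 of the negative ones did, beside 7.1%. Of the 11, edgeR called 0, and DESeq2 called 1 higher, Slc16a8, beside 0.216%. The part of that tissue in Thbs4 was not tested.

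Thbs1 (chr2:118111876-118127133) had the highest level per kb of the thrombospondins. It was at 67.8, 43.7 and 51.6 CPM in OIR-CIH and at 55.5, 57.8 and 35.1 CPM in OIR-Norm. The groups overlapped, and the log2 fold change of 0.13 ± 0.18 (adjusted p = 0.784) turned to -0.055 without OIR-CIH replicate 1 and to -0.064 without OIR-Norm replicate 3. Thbs2 was at 1.78 and 2.22 CPM (-0.32, adjusted p = 0.587) and Thbs3 at 6.36 and 6.80 CPM (-0.099, adjusted p = 0.839).

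The SPARC family, collagen-binding proteins made by glia and endothelium, was abundant and differed little. Sparc (chr11:55394500-55423183) was at 788, 747 and 869 CPM in OIR-CIH and at 905, 878 and 750 CPM in OIR-Norm. Its groups overlapped with a log2 fold change of -0.075 ± 0.10 (adjusted p = 0.771). Sparcl1 was at means of 162 and 183 CPM (-0.17, adjusted p = 0.564).

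The lecticans are chondroitin sulfate proteoglycans that bind hyaluronan, and within this family the values ran from -0.73 for Vcan to 0.32 for Acan. Vcan (chr13:89655312-89742509) encodes versican, which is present in the vitreous, in developing vessels and in early neural matrix, and had the lowest p of all members, ranking 117th of the 20021 genes tested. It was at 15.0, 19.8 and 22.5 CPM in OIR-CIH and at 29.9, 39.3 and 26.3 CPM in OIR-Norm. Every OIR-CIH library was below every OIR-Norm library. The means were 19.1 ± 3.85 and 31.8 ± 6.72 CPM, a level 1.66-fold higher in OIR-Norm, and the log2 fold change was -0.73 ± 0.16 with an adjusted p of 0.111 in edgeR and 0.000654 in DESeq2. With single libraries left out it was between -0.87 and -0.55, and its adjusted p in edgeR was between 0.0413 and 0.364.

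Ncan (chr8:70093085-70120873), encoding neurocan of the nervous system, had the highest level per kb of the lecticans. It was at 18.8, 18.9 and 22.7 CPM in OIR-CIH and at 18.5, 20.3 and 18.2 CPM in OIR-Norm. These values overlapped, with a log2 fold change of 0.090 ± 0.10 and an adjusted p of 0.743. Bcan, encoding brevican, was at 5.47 and 6.53 CPM (-0.25, adjusted p = 0.558). Acan, encoding aggrecan, was at 0.344 and 0.282 CPM (0.32, adjusted p = 0.801) and rested on 6 to 18 counts per library, with a standard error of 0.46.

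The fibulins, glycoproteins of elastic fibres and vessel walls, had the lowest median of the 9 role groups, -0.63, and -0.44 without OIR-Norm replicate 2. Fbln1 (chr15:85205949-85286535), which binds fibronectin and laminin, was at 52.5, 45.0 and 80.3 CPM in OIR-CIH and at 107, 110 and 79.0 CPM in OIR-Norm. OIR-CIH replicate 3 was just above OIR-Norm replicate 3, and the other 4 libraries were far apart. The means were 59.3 ± 18.6 and 98.5 ± 16.9 CPM, and the log2 fold change was -0.73 ± 0.18 with an adjusted p of 0.159. Without OIR-CIH replicate 3 the value was -1.02 with an adjusted p of 0.0166, the 1 member called lower in that comparison, beside 0.183% of all genes.

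Fbln2 (chr6:91212455-91272540), a partner of nidogen and perlecan, was at 7.57, 6.69 and 7.60 CPM in OIR-CIH and at 11.2, 14.2 and 8.54 CPM in OIR-Norm. The OIR-CIH libraries were close to each other and all below OIR-Norm. The log2 fold change was -0.63 ± 0.17, with an adjusted p of 0.185 in edgeR and 0.0273 in DESeq2, and -0.44 without OIR-Norm replicate 2. With single libraries left out, DESeq2 called Fbln2 only without OIR-Norm replicate 3. Fbln5, needed for elastic fibres, was at 6.62 and 7.76 CPM (-0.23, adjusted p = 0.749) and varied 2.45-fold among the OIR-Norm libraries.

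**Figure D4:**
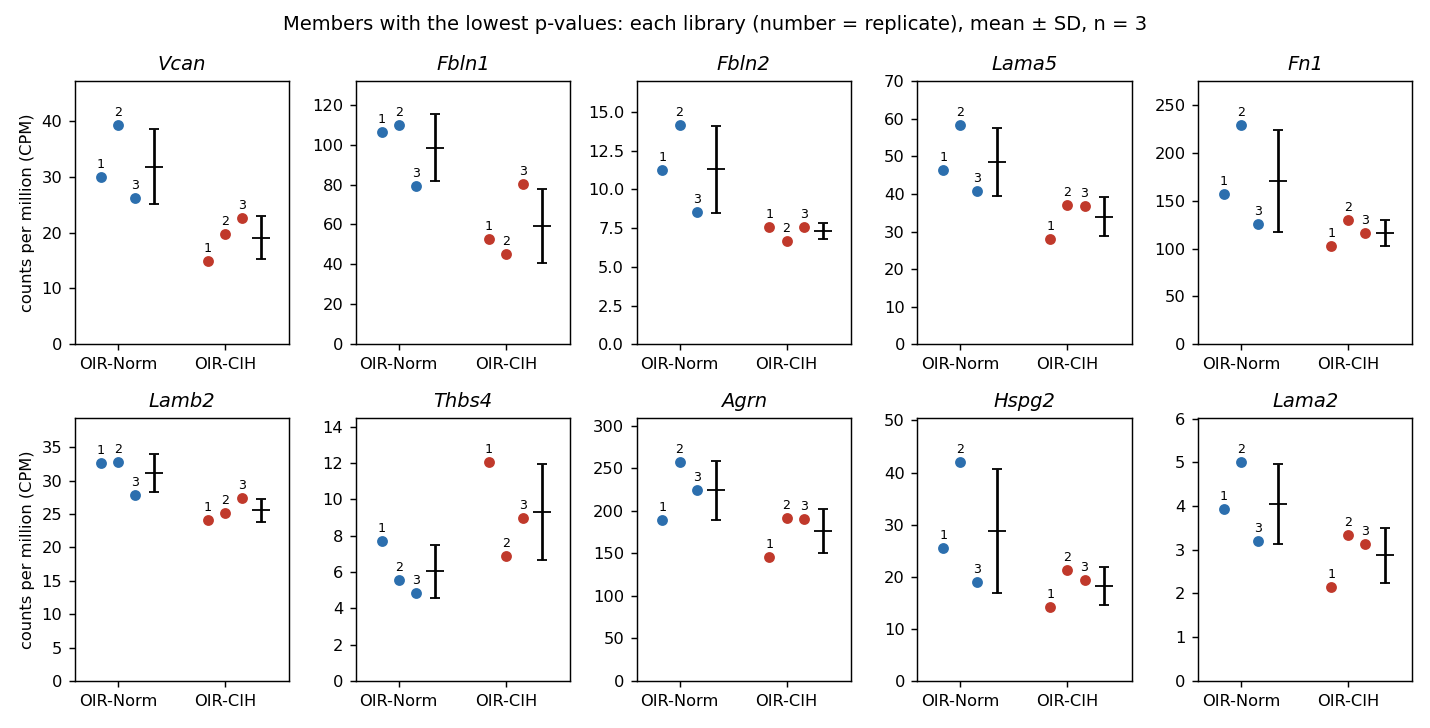
CPM of the 10 members with the lowest p-values in each library (points numbered by replicate; bars are the mean ± SD, n = 3; each vertical axis starts at 0). Vcan, Fbln2, Lama5 and Lamb2 separate the groups, Thbs4 is the 1 member shown that is higher in OIR-CIH, and OIR-Norm replicate 2 is the highest point in 9 of the 10 panels.

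With OIR-Norm replicate 3 left out, the library lowest for 10 members, edgeR called 3 members lower (Vcan, Fbln2 and Fn1) beside 0.414% of all genes, for which the log2 fold changes were -0.85, -0.80 and -0.73 (adjusted p = 0.0413, 0.0344 and 0.0474). In that comparison 15 members were lower at an unadjusted p under 0.05, beside 7.39% of all genes. With 3 libraries against 2, the groups of 13 members were apart with OIR-CIH lower, beside 15.7% of all genes, and those of 1 member, Acan, with OIR-CIH higher, beside 14.8%. The direction of Vcan, Fbln1, Fbln2, Lama5, Lamb2, Fn1, Agrn, Hspg2 and Lama2 was negative, and that of Thbs4 positive, in every alternative run. A kept direction was not particular to them, since it held throughout in 19 of the 32 members.

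Between genes, levels are compared as CPM per kb of exon, which ranged from 0.0419 for Acan to 274 for Vtn. After Vtn came Sparc at 217, Sparcl1 at 58.7, Agrn at 21.6, Fbln1 at 18.1, Fn1 at 12.3 and Tnr at 10.8 CPM per kb. Vtn and Sparc overlapped in their libraries, as did Agrn and Fbln1. Of the laminin chains, Lamc1 was at 6.23, Lamb2 at 4.66, Lamb1 at 4.10 and Lama5 at 3.62 CPM per kb, followed by Lama1 at 1.18 and Lama4 at 0.776, so that Lama5 had the highest level of the 5 alpha chains. Lamb3, Lama2 and Lama3 were at 0.101, 0.212 and 0.264 CPM per kb. The 10 members lower or higher at an unadjusted p under 0.05 lay across this range, from Lama2 to Agrn.

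**Figure D5:**
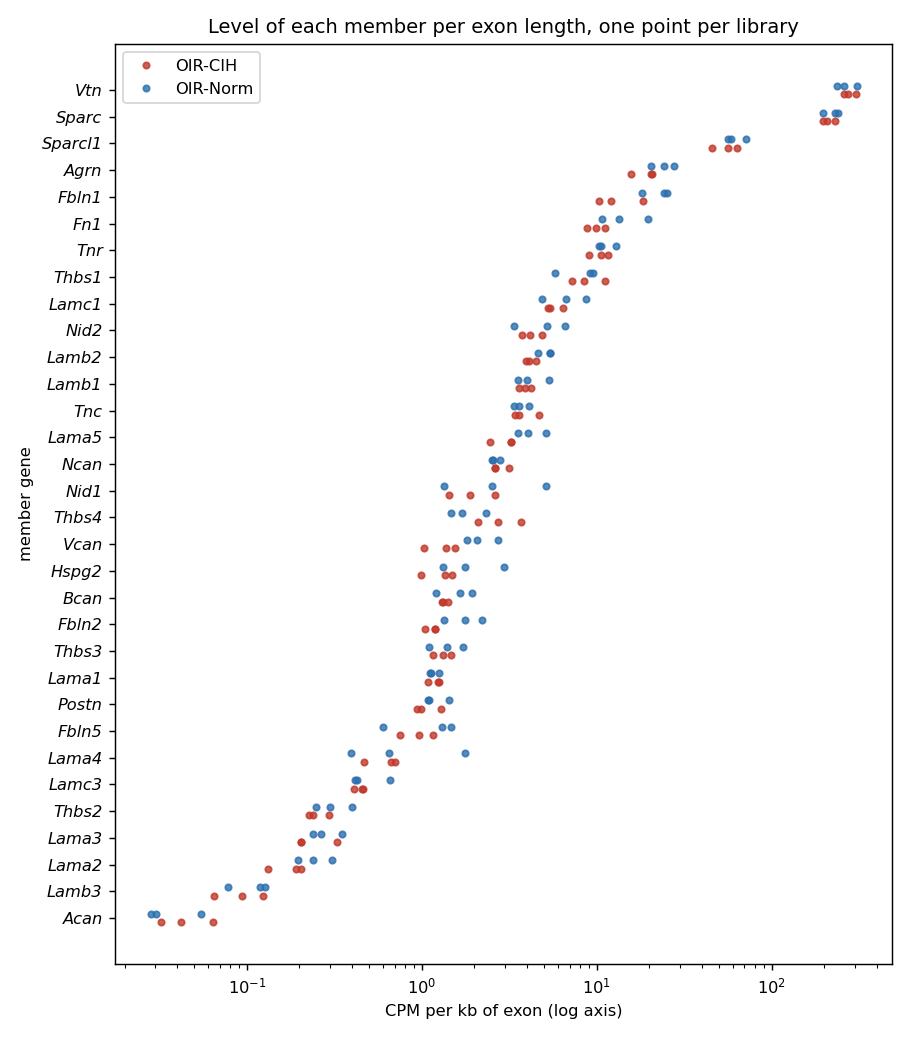
Level of each member as CPM per kb of exon (horizontal log axis), with 1 point per library in red for OIR-CIH and blue for OIR-Norm, members sorted by their mean. Vtn, at 274 CPM per kb, and Sparc, at 217, are the highest, and Acan, at 0.0419, is the lowest.

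By the positions of GENCODE M21, several members overlap another gene of the table. Nid2 overlaps Rtraf and Thbs3 overlaps Mtx1, both on the opposite strand, and Vcan overlaps the opposite-strand gene Gm4117. Fn1 overlaps Apol7d, and Lama2 overlaps Gm48084 and 4930579H20Rik, all on the opposite strand. Lama3, Lamb3, Lamc3, Nid1, Tnc, Tnr, Thbs1 and Sparcl1 also overlap other genes. Which strand was counted is not given in the sources used here, so reads shared with these genes cannot be told apart. No other gene of the table overlaps Fbln1, Fbln2, Lama5, Lamb2, Agrn, Hspg2 or Thbs4.

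Other genes of the matrix were read from 4 lists. Of 38 other matrix glycoproteins, 37 were tested, edgeR called 1 lower and 0 higher, DESeq2 called 2 lower (Sned1 and Matn2), and the median log2 fold change was -0.22. The called gene was Sned1, an interstitial matrix glycoprotein with nidogen and EGF-like domains, at 39.2, 43.1 and 52.3 CPM in OIR-CIH and 73.6, 87.5 and 67.8 CPM in OIR-Norm. It fell by 0.76 on the log2 scale (standard error 0.12, adjusted p = 0.0133, edgeR), and its adjusted p in edgeR was 0.0928 without OIR-CIH replicate 1 and 0.0666 without OIR-CIH replicate 2. The next 3 by p were Matn2 (matrilin, -0.57, adjusted p = 0.172 in edgeR and 0.0365 in DESeq2), Ltbp2 (a microfibril protein, -0.76, adjusted p = 0.248) and Fbn2 (fibrillin, -0.54, adjusted p = 0.264).

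Of 17 small leucine-rich and heparan sulfate proteoglycans, 16 were tested, edgeR called 0 and DESeq2 called 1 lower (Ogn), and the median was -0.33. The 4 with the lowest p were Optc (opticin of the vitreous, -0.48, adjusted p = 0.0852), Ogn (-0.61, adjusted p = 0.186 in edgeR and 0.0220 in DESeq2), Bgn (biglycan, -0.90, adjusted p = 0.266) and Fmod (fibromodulin, -0.57, adjusted p = 0.271). Optc had 101 to 130 CPM in OIR-CIH and 147 to 167 CPM in OIR-Norm.

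The receptors of these matrix proteins were also read. Of 24 matrix receptors, 0 were called by either tool and the median was -0.12. Itgb1, the beta chain shared by most laminin and fibronectin receptors, had a log2 fold change of -0.29 (adjusted p = 0.301), Cd44, the hyaluronan receptor, -0.54 (0.307), Itga5, the fibronectin receptor's alpha chain, -0.68 (0.352) and Sdc2, a syndecan, 0.14 (0.432). Of 18 hyaluronan and chondroitin sulfate partners, 0 were called by either tool and the median was -0.032. The lowest p in that list were those of Has3, a hyaluronan synthase (-0.51, adjusted p = 0.275), Cspg5, a neural proteoglycan (0.21, 0.301), Hyal1, a hyaluronidase (-0.40, 0.378) and Has1 (-0.79, 0.523).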

How the data were processed

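Poly(A) RNA of 3 OIR-CIH and 3 OIR-Norm retinas (250 ng, strand-specific kit) was sequenced. Per the submitters' processing notes the authors aligned reads with STAR 2.7.9a, and they deposited raw counts per gene without normalization. The notes name GRCm38 and the methods Ensembl 105, which is a later build, so symbols, exon lengths and coordinates were taken by gene identifier from GENCODE M21 (GRCm38), in which 32158 of 32285 identifiers matched. The aligner's strand setting is not given in the sources used here.

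Genes whose counts summed to 10 or more were tested with edgeR 4.0.16 in R 4.3.3 (trimmed mean of M-values, quasi-likelihood, Benjamini-Hochberg adjustment over all genes), and called where the adjusted p was below 0.05 and the log2 fold change beyond ±0.5. The standard error of a log2 fold change is its size divided by the square root of F. CPM are counts over effective library size. Alternatives were DESeq2 1.42.0, limma 3.58.1 on log2(CPM + 0.5) and with voom, other scaling and filters, no minimum fold change, a replicate block and leaving out each library. The scripts were tested on simulated data. The members and lists were chosen with earlier results of these data known. Every member is named, with values by library for the 10 with the lowest p, those with groups apart and the one with the highest level per kb in each role, and at most 4 genes of each further list by p. Replicates differed by more than sampling noise. Cx3cr1, Rlbp1, Car14, Kdr, Myh11, Col1a2, Mfap4, Rpe65, Rgr, Ttr, Slc16a8 and the astrocyte genes other than Gfap were named after their values were seen. Some retinal marker genes are not reported here.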

Additional observations from a re-analysis of the deposited data

How the results depend on the processing

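The 0 members called lower became 3 with DESeq2 and ranged from 0 to 3 with single libraries left out; 0 members were called higher under any alternative. Genes called lower, 42, were 101 with DESeq2 and 22 to 81 with single libraries left out, and genes called higher, 21, were 34 with DESeq2 and 7 to 31. All 63 genes called were also called by DESeq2. The 4 members with groups apart, beside 18.4% of all genes in either direction, became 5 to 14 beside 25.8% to 31.7%, the median log2 fold change of -0.23 ranged from -0.31 to -0.019, and the 3 members that DESeq2 called became 0 to 4, an alternative chosen after the data were seen. The causes were not tested.

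Of 447 values of single members under alternatives, 425 kept direction and side of the threshold, 7 became calls and 15 turned in sign, in 13 members, all with a single library left out. Over those fits the log2 fold change ran from -0.048 to 0.69 for Acan, -0.54 to 0.017 for Fbln5, -0.0067 to 0.086 for Lama1, -0.96 to 0.25 for Lama4, -0.26 to 0.047 for Lamb1, -0.42 to 0.037 for Lamb3, -0.28 to 0.075 for Lamc3, -0.013 to 0.14 for Ncan, -0.92 to 0.063 for Nid1, -0.064 to 0.27 for Thbs1, -0.25 to 0.070 for Thbs3, -0.069 to 0.17 for Tnc and -0.019 to 0.17 for Vtn.

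Samples with the same replicate number shared only a number: their deviations correlated at 0.147, 0.134 and -0.233. With the replicate block 0 members were called, 39 genes were called lower and 29 higher, and the members' median was -0.19. The least counted members, Acan and Lamb3, had standard errors of 0.46 and 0.35.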
